A study of Mus musculus with 4 samples.

Results

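The sites described here are the autosomal CTCF sites that ranked near the top of the peak lists of both splenic B cells and plasmablasts of the mouse. A B cell peak and a plasmablast peak were taken as 1 shared site if they overlapped by at least 1 bp, which gave 24186 pairs on the 19 autosomes. Each pair was ranked by peak score in each list, and the members are the 1167 pairs above the 90th percentile in both. They were 4.83% of all pairs. Since the members were chosen by these scores, their scores and their number are a description and not a finding.

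CTCF is a zinc finger protein that binds a long DNA motif and is known as an insulator. It is the main sequence-specific partner of cohesin at the anchors of chromatin loops. Many of its sites are bound in most cell types, and in B lineage cells it is known for its part in the folding of the immunoglobulin loci. A ChIP-seq peak score follows how many sequenced fragments pile up at a site, and so combines how many cells have the site bound, for how long, and how well the fragments are recovered.

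Both cell types came from spleens of C57BL/6 mice 6 weeks of age. B cells were the CD43- fraction left by magnetic beads, from mice for which no treatment is given. Plasmablasts, antibody-secreting cells that still divide, were sorted by flow cytometry as CD138+ cells 3 days after 50 µg of lipopolysaccharide (LPS) had been injected behind the eye. A single CTCF library and a single input were made per cell type. The sources name neither the sex of the animals nor any pooling of them. The lists hold 36381 B cell peaks of 305 bp and 31086 plasmablast peaks of 179 bp (1 of another width). They carry no expression values, so the cell type labels could not be checked against markers. The B cell libraries were sequenced on a Genome Analyzer II and the plasmablast libraries on a HiSeq, so cell type, LPS treatment and instrument cannot be told apart. The depth of the libraries is unknown.

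The members held the upper end of both score ranges. In B cells their scores ran from 238.0 to 439.9 with a median of 273.2, against a median of 105.6 over all pairs. In plasmablasts they ran from 58.7 to 200.6 with a median of 71.2, against 23.3. Relative to all pairs the members' median was 2.59 times higher in B cells and 3.06 times higher in plasmablasts. The highest member stood 1.85 times above the lowest in the B cell list and 3.42 times in the plasmablast list, so the B cell scores were packed more closely at the top. The percentile of a member differed between the lists by a median of 2.08 points and by at most 9.91, and 593 members ranked higher in B cells against 574 in plasmablasts. Over all pairs the median difference was 12.99 points and the largest 94.7. Members had to pass the same percentile threshold in both lists, so the selection itself kept their differences small. The members' differences are therefore a description and do not measure how alike the cell types are.

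**Figure D1:**
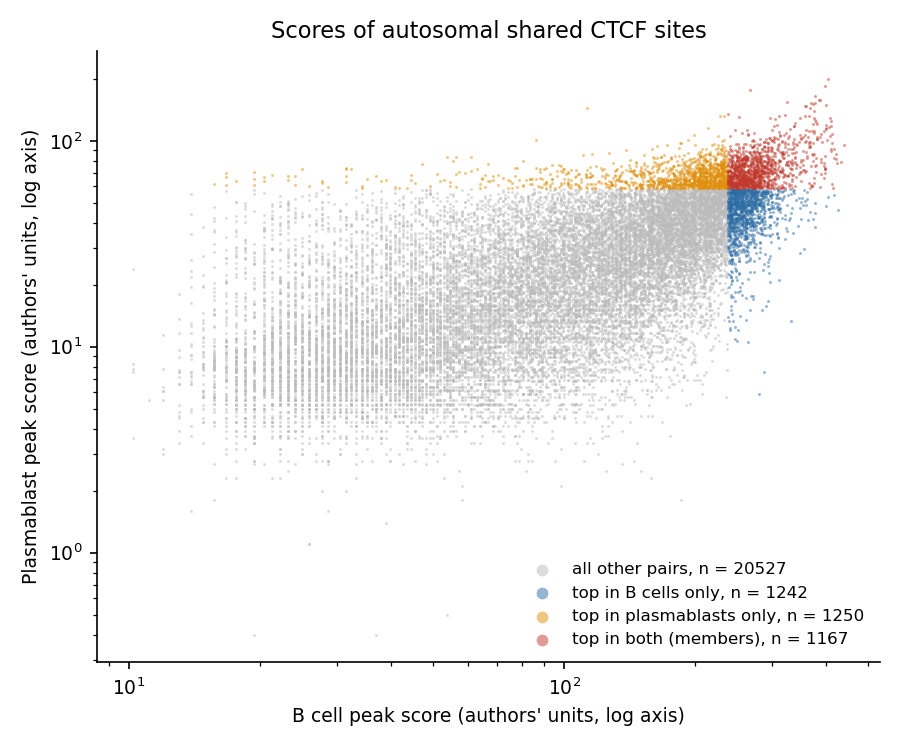
Peak score of each autosomal shared site in B cells (horizontal, log axis) and plasmablasts (vertical, log axis), in the authors' units, with 1 point per pair. The 1167 members fill the upper right corner, above 238.0 in B cells and 58.7 in plasmablasts.

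Of the pairs above the 90th percentile in one list, somewhat under 1 in 2 were above it in the other. Above the 90th percentile lay 2409 pairs in B cells (9.96% of all) and 2417 in plasmablasts (9.99%). The members were 48.4% of the former (exact 95% interval 46.4 to 50.5%) and 48.3% of the latter (46.3 to 50.3%). The 1242 pairs that were high in B cells only had a median plasmablast percentile of 80.2, and the 1250 pairs high in plasmablasts only had a median B cell percentile of 79.7. Most of the strong sites that missed membership were therefore still in the upper part of the other list. These shares and percentiles rest on the scores that chose the members, so they are a description and not a finding.

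The threshold cut through a continuous range. By the lower of the 2 percentiles, with ties taken by chromosome and position, the lowest members were on chromosomes 2 and 4. They began at 164228412, 136720407 and 138003341 (B cell peak starts, mm9, 1-based). Their plasmablast scores were 58.7 each, and their B cell scores were 322.3, 291.7 and 275.1. Just outside lay a chromosome 1 site from 173494463 with scores of 279.7 and 58.6. It was joined by sites on chromosome 1 from 184070570 and chromosome 2 from 168270997, both with a B cell score of 237.1 and plasmablast scores of 62.3 and 63.

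By the lower of its 2 percentiles, the highest member was on chromosome 1 at 183818963 to 183819267. Its B cell score was 403.8, and its plasmablast score of 200.6 was the highest of all autosomal pairs. The midpoints of its peaks coincided in the 2 lists, and another member lay 7195 bp away. The second by this measure, on chromosome 11 at 102964002 to 102964306, scored 400.1 in B cells and 149.5 in plasmablasts. Chromosome 7 held 3 of the 8 sites with the highest value of the lower percentile. They began at 144669962 (B cell score 408.4, plasmablast score 129.6), 38986005 (399.2 and 119.1) and 53056779 (406.6 and 116.6). The other three were on chromosome 19 from 59313993 (410.3 and 125.0), chromosome 9 from 111192404 (396.4 and 185.5) and chromosome 5 from 120552819 (409.4 and 118.4). In all 8 the midpoints lay between 0 and 7 bp apart.

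The members with the highest scores were not the same in the 2 lists. The member with the highest B cell score, on chromosome 10 at 79627803 to 79628107, scored 439.9 in B cells and 95.1 in plasmablasts. The next 2 by B cell score, on chromosome 7 from 142927348 (433.5) and chromosome 12 from 109996211 (424.2), had plasmablast scores of 79.2 and 77.6. By rank these plasmablast scores were still near the top of their list, at percentiles 99.4, 98.1 and 97.8. The 2 members with the highest plasmablast scores are the sites on chromosomes 1 and 9 given above. The third by plasmablast score was on chromosome 1 from 129393322. It reached 175.9 in plasmablasts but 266.7 in B cells (percentile 95.4), a score under the members' B cell median of 273.2.

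The position of a strong site was nearly the same in both cell types. The midpoints of a member's peaks lay a median of 9 bp apart (95% interval of the median 8 to 10, quartiles 4 and 16 bp), against 17 bp (17 to 18) in the 23019 pairs that were not members. Within 10 bp lay 56.6% of the members (53.7 to 59.5%) and 32.0% of the others (31.3 to 32.6%). Within 50 bp the shares were 98.97% and 87.8%. In the band from the 80th to the 90th percentile in both lists the median offset was 10 bp (9 to 11). Within 10 bp lay 51.8% of that band (47.8 to 55.8%) and within 50 bp 98.9% (97.7 to 99.5%). These intervals overlap those of the members, so the closeness was not particular to the members. There was no common shift, since the plasmablast midpoint lay to the right in 564 members, to the left in 559 and at the same base in 44. Position was not part of the ranking, but it was called from the same reads as the score.

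This closeness went with the B cell rank more than with the plasmablast rank. Pairs high in B cells only lay within 10 bp in 53.4% of cases (50.6 to 56.2%), an interval that overlaps that of the members. Pairs high in plasmablasts only did so in 37.4% (34.7 to 40.2%), an interval clear of both. Along the B cell list the median offset went from 33 bp below the 10th percentile to 9 bp above the 90th. Along the plasmablast list it went from 24 to 11 bp. B cell peaks are the wider ones, and the part of peak width or library depth in this difference was not tested.

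**Figure D2:**
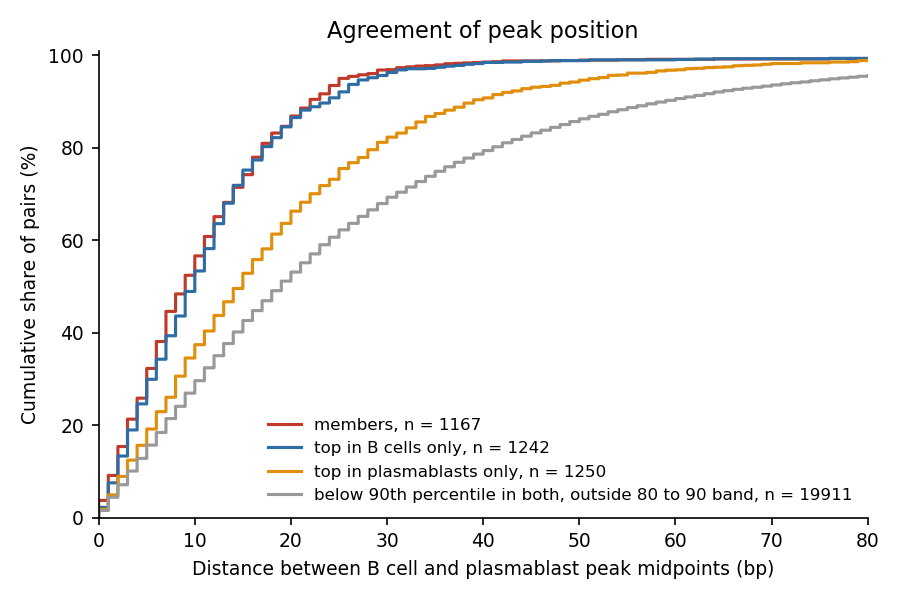
Cumulative share of pairs (vertical, %) by distance between the B cell and plasmablast midpoints (horizontal, bp, shown up to 80). The curves of members and of sites high in B cells only run together, with 56.6% and 53.4% within 10 bp, above those of sites high in plasmablasts only (37.4%) and of pairs high in neither.

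A few members were displaced, with 7 of 1167 over 100 bp apart (0.60%, interval 0.241 to 1.23%). The largest offset was on chromosome 10, where the B cell peak at 127846703 to 127847007 (281.6) met a plasmablast peak at 127847003 to 127847181 (78.5), 237 bp away to the right. On chromosome 7 the plasmablast peak lay 226 bp to the left of the B cell peak from 129395252 (258.4 and 58.9). On chromosome 18 it lay 190 bp to the right of the B cell peak from 36099165 (401.0 in B cells and 100.6 in plasmablasts), at the 99.9th percentile of the B cell scores.

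Members lay in regions rich in CTCF sites. A member had a median of 26 other shared sites within 500 kb (25 to 27, quartiles 17 and 36), against 19 for the other pairs (quartiles 12 and 28). The median was 24 (23 to 25) for sites high in B cells only and 21 (20 to 22) for sites high in plasmablasts only. In the band from the 80th to the 90th percentile in both lists it was 23 (21 to 24). A number of neighbours above 19 was thus not particular to the members. When all pairs were divided into quintiles by this number, members were 2.09% (1.71 to 2.52%) of the pairs with 0 to 10 neighbours and 8.43% (7.63 to 9.29%) of those with 33 to 69. The share rose at each step between them, through 3.25%, 4.69% and 6.03%. The share above the 90th percentile of each list rose likewise between the outer quintiles. It went from 4.61% to 15.8% for the B cell list and from 5.75% to 14.7% for the plasmablast list. The nearest other shared site lay a median of 9.82 kb from a member and 14.1 kb from other pairs. Without another shared site within 100 kb were 1.80% of the members (1.12 to 2.74%) and 6.38% of the other pairs (6.07 to 6.71%). The share was 1.85% of the sites high in B cells only (1.18 to 2.77%), 2.48% of those high in plasmablasts only (1.69 to 3.50%) and 2.44% in the band from the 80th to the 90th percentile in both lists (1.37 to 3.98%), and these intervals overlap that of the members. In that band the nearest shared site lay a median of 10052 bp away. For sites high in B cells only and high in plasmablasts only the medians were 10995.5 and 11013.8 bp. That strong sites lie in dense regions is not independent of the earlier results on these lists.

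Solitary members did occur. The most isolated, on chromosome 10 from 29033233, lay 358236 bp from the next shared site and had scores of 243.6 and 75.5. The next were on chromosome 18 from 69312448 (285.3 and 66.6, 343598 bp) and chromosome 4 from 24825031 (263.0 and 80.6, 323552 bp). A plasmablast only peak lay 25277 bp from the chromosome 10 site and another 177002 bp from the chromosome 4 site. From the chromosome 18 site a B cell only peak lay 43970 bp away.

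The members were spread over all 19 autosomes, in shares of the shared pairs from 2.66% to 6.28%. Chromosome 2 had the highest share, with 122 of 1943 pairs (6.28%, interval 5.24 to 7.45%), and was the only autosome whose interval lay above the 4.83% of all autosomes. The intervals of chromosomes 13 (24 of 902, 2.66%, 1.71 to 3.93%), 19 (3.23%, 2.12 to 4.69%) and 6 (3.57%, 2.63 to 4.72%) lay below it. These intervals are not adjusted for the 19 autosomes compared. Chromosome 13 was low in both lists, with 6.21% of its pairs above the 90th percentile in B cells and 7.65% in plasmablasts. Chromosome 19 was not, at 10.5% in B cells and 6.33% in plasmablasts. Chromosome 11, the densest in shared sites (17.3 per Mb), held most members per Mb (0.961) and a share of 5.57%, the fourth highest.

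**Figure D3:**
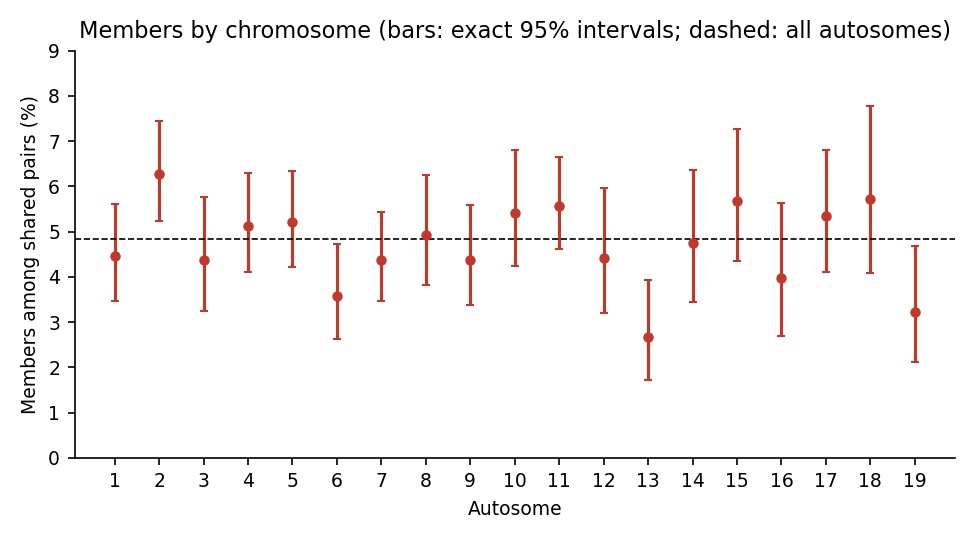
Members as a percentage of shared pairs (vertical) on each autosome (horizontal), with exact 95% binomial intervals as bars and the 4.83% of all autosomes as the dashed line. Chromosome 2 (6.28%) stands highest and chromosome 13 (2.66%) lowest.

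Along the chromosomes, members were more frequent toward the distal end. When the span between the first and the last pair of each autosome was cut into 10 equal parts, members were 3.6% (2.75 to 4.63%) of the pairs in the first part and 6.13% (5.39 to 6.94%) in the last. The first 6 parts ranged from 3.33% to 4.37% and the last 4 from 5.40% to 6.13%. The last part also held most pairs, 3849 against 1610 in the first.

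Of 1949 windows of 1 Mb with a shared pair, 629 held a member and 367 of these held 1. A single window stood apart: chromosome 10 from 80000001 to 81000000 held 15 members, and no other window held more than 8. It was also the window with most shared pairs, 66, of which members were 22.7% (13.3 to 34.7%). That is above the 8.43% of the densest quintile of pairs, but the window was picked as the one with most members, so its share is a description. Its members had B cell scores from 242.7 to 275.1 and plasmablast scores from 58.9 to 96.5, a narrow range in the B cell list. They were spread over 960 kb with a median of 46.5 kb between neighbours, interleaved with 51 shared sites that had median scores of 164.9 and 28.8. The highest B cell score among these 51 was 367.7, above that of every member of the window. The lower end of the members' range is bounded by the threshold. The window before it, from 79000001, held another 8 members among 59 pairs, including the member with the highest B cell score.

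**Figure D4:**
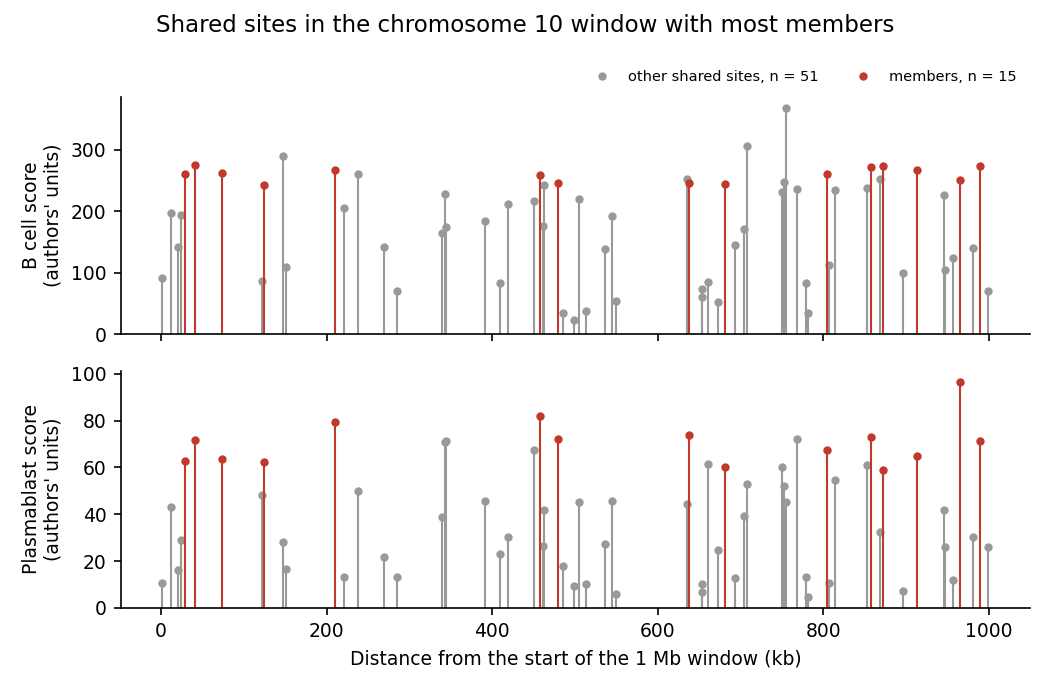
Scores of the 66 shared sites of the chromosome 10 window by distance from its start (horizontal, kb), in B cells (upper) and plasmablasts (lower), in the authors' units. The 15 members stand at similar B cell heights, from 242.7 to 275.1, and are spread over the whole window among 51 other sites. Those other sites reach up to 367.7 in B cells.

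There were 8 windows with 8 members. On chromosome 2 from 32000001 these were 8 of 47 pairs and included 3 sites above the 99th percentile in both lists, from 32260231 (338.1 in B cells and 102.4 in plasmablasts), 32544982 (364.0 and 104.9) and 32767965 (359.4 and 147.6). On chromosome 4 from 134000001 they were 8 of 50, led by the site from 134033966 (380.7 and 120.5). Dense windows without members also occurred: of 161 windows with at least 30 pairs, 18 held none, among them chromosome 14 from 55000001 with 40 pairs.

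Members were mostly single among their neighbours. Consecutive shared sites were both members in 81 cases, and members formed 6 runs of 3, 69 runs of 2 and no longer run. The next shared site along the chromosome was a member for 6.94% of the members (5.55 to 8.55%) and 4.72% of the other pairs (4.45 to 5.0%). The shares differed by the distance to the next site. With the next site within 2 kb it was a member in 13 of 57 cases after a member (22.8%, 12.7 to 35.8%) and in 58 of 924 after another pair (6.28%, 4.80 to 8.04%). Between 5 and 10 kb the shares were 5.67% and 5.56%. Between 50 and 100 kb they were 8.43% (4.69 to 13.7%) and 4.16% (3.55 to 4.84%), with intervals that overlap. Over 100 kb it was a member in 0 of 107 cases (upper limit 3.39%), against 2.35% after other pairs. A difference within 2 kb was also seen when each list was taken by itself. There a site above the 90th percentile in B cells was followed by another in 31.3% of cases, against 11.2% after other sites. For the plasmablast list the shares were 26.0% and 11.7%. Both of these groups include the members.

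The closest members were on chromosome 8 at 86710363 to 86710667 and 86711297 to 86711601, 918 bp apart. Their B cell scores were 245.4 and 252.8, with plasmablast scores of 61.2 and 79.4. Others lay on chromosome 5 from 125750992 (944.5 bp between the sites, taken as the mean of both midpoints), chromosome 9 from 107546968 (980.5 bp), chromosome 8 from 124373896 (997 bp) and chromosome 19 from 44369253 (1010.5 bp). The tightest run of 3 was on chromosome 2, from 32709779 to 32714848, with B cell scores of 246.4, 260.3 and 274.2 and plasmablast scores of 70.1, 68.5 and 66.0.

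The result within 2 kb has to be read with a step in both lists at 5 kb. Of 403 listed B cell peaks within 5 kb of a member, 3 scored under 0.25 of that member's B cell score (0.744%, interval 0.154 to 2.16%). Of 635 between 5 and 10 kb, 283 did (44.6%, 40.7 to 48.5%). In plasmablasts the same shares were 20.9% (17.5 to 24.7%) and 39.3% (35.0 to 43.7%). The lowest B cell score within 5 kb of a member was 57.4, against 10.2 beyond. Weak peaks close to a strong one are thus scarce in the lists, most of all in B cells: the median B cell score of a member's listed neighbours was 184.3 within 5 kb and 88.9 from 5 to 10 kb. Among next sites above the median of both lists, those within 2 kb were members in 27.1% of cases after a member (15.3 to 41.8%) and 13.3% after another pair (10.3 to 16.9%), and these intervals overlap. Between 50 and 100 kb the same shares were 24.6% (14 of 57, 14.1 to 37.8%) and 11.6% (9.91 to 13.4%), with intervals that do not overlap. Which settings the peaks were called with is unknown here, and their part in the step was not tested.

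Peaks of only 1 list followed the same step around the members, and in opposite directions for the cell types. Within 5 kb of the members lay 33 B cell only peaks, 6 of them within 1 kb, against 190 between 5 and 10 kb. Per kb of distance this was 0.514 per 100 members in the first kb and 3.26 between 5 and 10 kb. The values were 0.691 and 2.46 around all other pairs, and 0.161 and 3.20 around sites high in B cells only. Plasmablast only peaks did the reverse, with 4.63 per 100 members in the first kb, 2.01 per kb from 1 to 5 kb and 0.943 per kb from 5 to 10 kb. Around the other pairs the plasmablast only peaks went from 1.76 to 1.06 per kb between the first and the last of these distances. Around sites high in B cells only they went from 4.03 to 1.35, and in the band from the 80th to the 90th percentile in both lists from 3.57 to 1.07, so the pattern was not particular to the members.

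**Figure D5:**
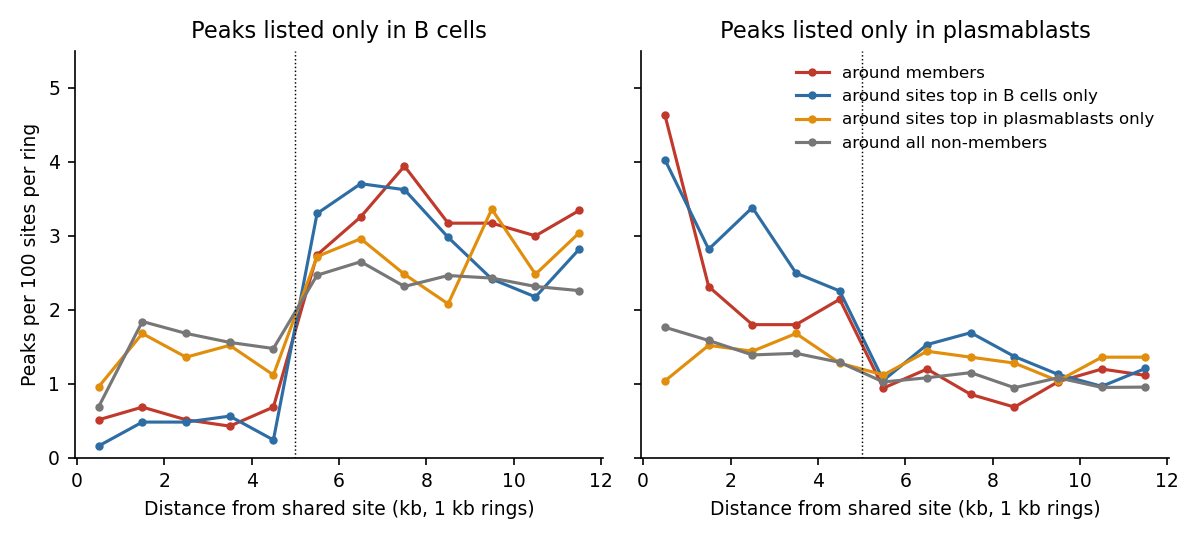
Peaks listed only in B cells (left) and only in plasmablasts (right) per 100 shared sites (vertical) in rings of 1 kb around the site (horizontal, kb), with a dotted line at 5 kb. Around members B cell only peaks are scarce up to the line and frequent beyond it, while plasmablast only peaks are most frequent in the first kb (4.63 per 100 members). Sites high in B cells only show the same pattern (4.03 plasmablast only peaks in the first kb).

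A plasmablast only peak within 2 kb was found beside 78 members, 6.68% (5.32 to 8.27%), and beside 3.27% of the other pairs (3.05 to 3.51%). The share was 6.52% beside sites high in B cells only (5.21 to 8.04%), an interval that overlaps that of the members, and 2.56% beside sites high in plasmablasts only (1.76 to 3.59%). It went, like the midpoint offset, with the B cell rank. B cell only peaks within 2 kb were found beside 1.20% of the members (0.657 to 2.0%), 0.644% of the sites high in B cells only (0.278 to 1.27%) and 2.50% of all pairs that were not members (2.30 to 2.71%).

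The plasmablast only peaks beside members scored higher than most peaks of that list alone, as did those beside the other strong sites. The 78 had scores from 7.8 to 84.7 with a median of 28.0, against a median of 10.3 over the 6049 plasmablast only peaks of the autosomes and 13 for those beside other pairs. Beside sites high in B cells only the median was 21.9, and beside sites high in plasmablasts only it was 24.2. Above the median of the autosomal plasmablast peaks lay 50 of the 78, 44 of 81 and 23 of 32 in these groups, against 1499 of the 6049. The highest were at chromosome 15 position 97494202 to 97494380 (84.7) and chromosome 5 position 123582898 to 123583076 (75.7). The former lay 440 bp from a member with scores of 274.2 (B cells) and 70.5 (plasmablasts). The latter lay 603 bp from a member with 315.8 and 70.7. Both of these peaks thus scored above the plasmablast score of the member beside them. Few B cell peaks of low score are listed within 5 kb of a strong one, so a peak listed only in plasmablasts there is not shown to be absent from B cells. Plasmablast peaks under 0.25 of a member's plasmablast score were also less frequent within 5 kb (20.9%) than from 5 to 10 kb (39.3%). The part of this scarcity in the higher scores of plasmablast only peaks beside strong sites was not tested.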

How the data were processed

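The members and the comparisons were chosen with earlier results of these data known. The submitters' processing notes name the aligner Bowtie, the peak tool HOMER and mouse genome mm9. Versions, peak-calling settings and any use of input DNA are not given in the sources. The authors deposited 1 peak list per CTCF library, with a peak score whose unit is not stated. The scores ranked and described peaks within a list only. Starts count from 0 as in BED, and 1 was added to give browser positions. Pairing followed midpoints, each peak was used once, and bedtools 2.31.1 gave the same 24186 overlapping peaks in either list. Ranks were percentiles with average ties. Shares carry exact (Clopper-Pearson) 95% binomial intervals and medians carry 95% order-statistic intervals. Both cover counting error only and treat sites as independent. With 1 library per cell type there is no replicate spread and no p-value. The pairing and neighbour counts were tested on simulated data.

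Sites named in the text follow a rule: the 8 members with the highest value of the lower percentile, the 3 highest by score in each list, those nearest the threshold, the closest, the most isolated and the most offset members, and the runs and 1 Mb windows with most members. Those that carry a result are given in full. The B cell and plasmablast only peaks around members, the neighbour score ratios and the side peaks named were added after seeing the data. No mm9 genome or annotation was used here, so sequences, motifs and genes at the sites are not given. Input libraries were not analysed here. Python 3.11.15, numpy 2.4.6, pandas 2.3.3, scipy 1.17.1 and matplotlib 3.10.9 were used.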

Additional observations from a re-analysis of the deposited data

How the results depend on the processing

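In all, 46 of 56 alternatives stayed within the interval of the reported value (for the number of members, within 1.5 times), 10 moved and 0 turned the direction. A threshold at the 80th or 95th percentile gave 3037 or 492 members. The median of 26 shared sites within 500 kb of a member became 24 with the 80th percentile, 13 within 250 kb, 47 within 1 Mb, 37 when all B cell peaks were counted and 30 for all plasmablast peaks. It was above that of the other pairs (19, 10, 34, 28 and 23) each time. Within 25 bp in place of 50 bp lay 95.03% of the members' midpoints. The share of members on chromosome 13 was 0.55 of that on all autosomes and 0.87 with the 95th percentile, where its interval (0.50 to 1.41) includes 1. The next site was a member 1.47 times as often after a member as after another pair. With the 95th percentile this ratio was 1.52, and its interval (0.85 to 2.48) includes 1. Within 2 kb the ratio was 4.76 (1.004 to 12.6) with the 95th percentile, from shares of 10% and 2.10%, an alternative that was not planned. The intervals of these ratios cover the counting error of the first share only and take the comparison share as exact. They are therefore too narrow, and a lower limit of 1.004 does not settle whether that ratio is above 1. Plasmablast only peaks were 2.04 times as frequent beside members as beside other pairs within 2 kb and 2.64 times within 1 kb, an alternative chosen after seeing the data. Restricting the next site to those above the median of both lists, also chosen later, lowered the ratio within 2 kb from 3.63 to 2.04. Ranking over all listed autosomal peaks gave 1740 members. With the X chromosome ranked in there were 1196, 4 of them among its 516 pairs. Motif and gene alternatives were not run, since no mm9 genome was used. No replicate exists to leave out, and depth is unknown, so an unlisted peak is not shown to be absent. No paired analysis was possible because each cell type has 1 CTCF library.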
